A study of Mus musculus with 24 samples.

Results

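The genes described here are the vasopressin receptors Avpr1a and Avpr2 and the urea transporters Slc14a1 and Slc14a2. They were found in the deposited gene table by symbol. All 4 of the 4 listed genes were present, among 56748 gene identifiers, and all 4 passed the filter on low values (a mean of at least 10 normalized counts over the libraries). The table comes from poly A RNA sequencing of whole mouse kidney, with kidneys taken midway through the active or the inactive period. It holds 6 libraries each of male kidneys in the active period, male kidneys in the inactive period, female kidneys in the active period and female kidneys in the inactive period. The samples were deidentified, and their labels give kidney, sex and period, with no genotype, strain, age, drug or clock time. They do not say that libraries of a group came from separate animals, so p-values here weigh differences against variation among libraries, part of which may be technical.

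Vasopressin is the pituitary hormone that makes the kidney retain water. Its V2 receptor, encoded by Avpr2, sits on collecting duct principal cells and the thick ascending limb, couples to Gs and cyclic AMP, and brings the water channel Aqp2 and the urea transporter UT-A1 to the cell surface. The V1a receptor, encoded by Avpr1a, couples to Gq and calcium and is known from vessels and, in the kidney, from intercalated cells of the collecting duct. Slc14a2 encodes the UT-A urea transporters of the inner medullary collecting duct and thin descending limb, and Slc14a1 encodes UT-B of the descending vasa recta and red cells; together they keep urea in the medulla, where it helps to concentrate urine.

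The members lay far apart in level. Per kb of exon, Slc14a2 averaged 438 normalized counts over the 24 libraries, Avpr1a 137, Slc14a1 79.1 and Avpr2 4.14. Avpr1a is on chromosome 10, Avpr2 on chromosome X, and Slc14a1 and Slc14a2 are both on chromosome 18. In the GENCODE annotation of GRCm38 no exon base of Avpr1a, Slc14a1 or Slc14a2 is shared with another gene, whereas 2347 of the 2886 exon bases of Avpr2 (81.3%) lie opposite exons of Arhgap4.

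**Figure D1:**
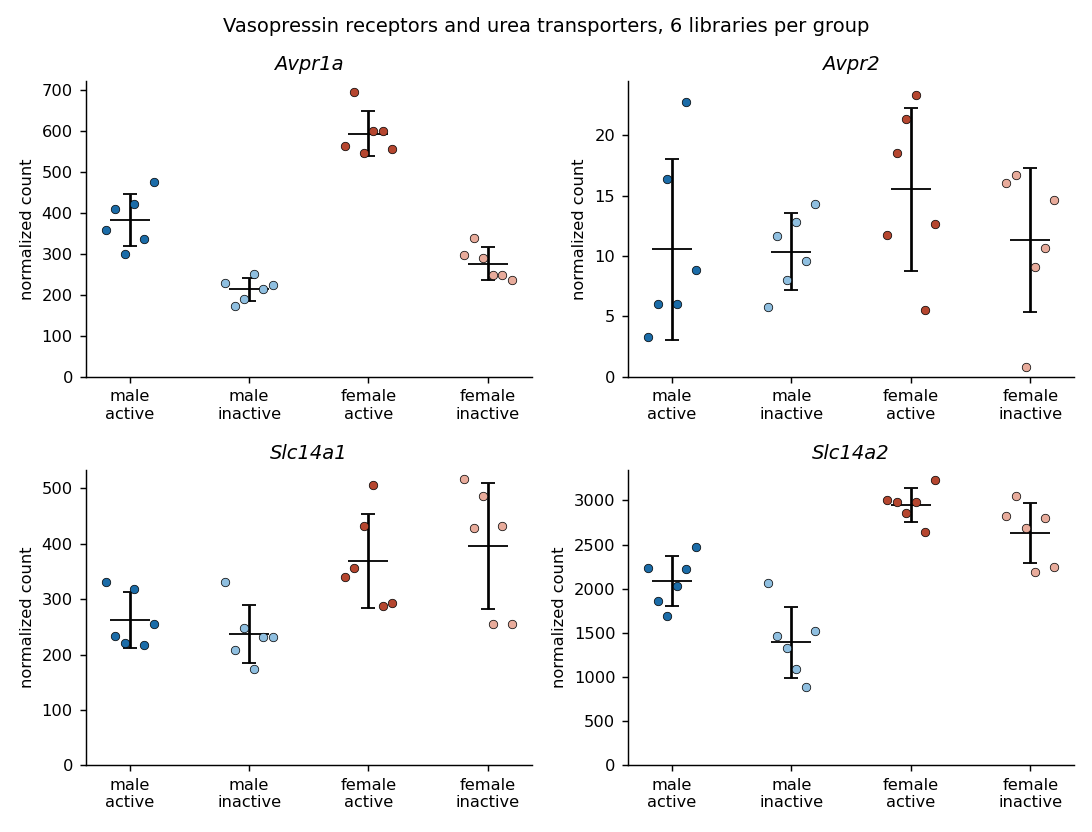
Normalized count (y axis, linear, from 0) of each gene in every library, with the 4 groups along the x axis; points are libraries, and the line and bars are the mean and SD of 6. Avpr1a in the active period lies above the inactive period of the same sex in every library, Slc14a2 is lowest in male kidneys of the inactive period, and Avpr2 reaches at most 23.4.

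The sequence before the start of Avpr1a is shown first, because this gene was called for the period in both sexes. It gives the 250 bases upstream of the annotated start, chr10:122448249-122448498 on the + strand of GRCm38.p6, from RefSeq, matched by symbol. Capitals mark 3 short matches.
Avpr1a upstream: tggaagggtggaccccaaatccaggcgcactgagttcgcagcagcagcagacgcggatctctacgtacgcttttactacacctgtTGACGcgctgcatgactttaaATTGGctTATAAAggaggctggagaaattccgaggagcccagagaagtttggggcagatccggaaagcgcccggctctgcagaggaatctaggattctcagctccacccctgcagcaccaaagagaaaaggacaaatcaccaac

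Both strands were searched for 9 short motifs. The first match is TGACG, the half-site of the cyclic AMP response element, which begins 165 bases upstream of the start and occurs in 17.8% of 32851 promoter windows of the same length. The second is CCAAT on the opposite strand at 144 bases upstream, present in 33.8% of windows. The last is TATAAA at 137 bases upstream, present in 12.4%. The full response element TGACGTCA (1.55% of windows), the E-box CACGTG (6.02%), its variant CACGTT (3.85%), the D-box TTANGTAA (2.06%), AGGTCA (14.0%) and AGAACA (16.1%) had no match in these 250 bases. These matches describe letters and say nothing of binding.

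Avpr1a, the V1a receptor, was higher in the active period in both sexes and lower in males than in females in both periods. In male kidneys its normalized count ran from 299 through a median of 384 to 476 in the active period, against 172, 219 and 250.1 (lowest, median, highest) in the inactive period. In female kidneys the same values were 547, 582 and 696 in the active period, against 236, 269 and 339 in the inactive period. In neither sex did an active library reach down to an inactive one.

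Among males Avpr1a averaged 383 ± 64.3 in the active and 214 ± 28.1 in the inactive period (SD, n = 6 each), a 1.78-fold difference (log2 fold 0.83 ± 0.11 SE, limma with Benjamini-Hochberg adjusted p = 6.75e-06). Among females it averaged 594 ± 55.0 in the active and 276 ± 39.6 in the inactive period, a 2.15-fold difference (log2 fold 1.11 ± 0.11, adjusted p = 2.03e-08). For the period, 15.4% of the 17333 genes tested were called in males (8.43% higher and 6.95% lower) and 15.0% in females (7.97% higher and 6.98% lower), where called means an adjusted p under 0.05. Groups that do not overlap were found for 4.29% of genes in males and 7.83% in females. By the size of its p, 33rd in females and 48th in males, Avpr1a was near the top of the table in both sexes.

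The larger fold of females was not separated from that of males. The difference of the period effects, males minus females, was -0.27 ± 0.16 on the log2 scale (95% interval -0.59 to 0.05, adjusted p = 0.351), while 2.71% of all genes were called for this difference (1.41% higher and 1.30% lower). In edgeR, DESeq2 and every other alternative run, the period difference of Avpr1a was called in both sexes.

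Between the sexes in the active period, Avpr1a was lower in male kidneys, with a log2 fold of -0.64 ± 0.11 (adjusted p = 9.44e-06) and no overlap of the libraries. In the inactive period it was also lower in males, with a log2 fold of -0.37 ± 0.11 (adjusted p = 0.00540), and 5 of 6 male libraries lay below every female one. Most genes differed between the sexes. In the active period 60.6% were called (30.1% higher and 30.5% lower in males) and the groups of 36.3% did not overlap, and in the inactive period 55.7% were called (27.9% higher and 27.8% lower) and the groups of 32.3% did not overlap. A call between the sexes is therefore near the background of the table. Scaling to equal totals moved the median of all genes by -0.27 and -0.28 on the log2 scale and gave 2635 higher and 8822 lower calls in the active and 2051 and 9054 in the inactive period. The order of the Avpr1a means was female active, male active, female inactive and male inactive; the libraries of the middle groups, male active and female inactive, overlapped and their difference was not tested.

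Markers of the cells that could carry Avpr1a were read beside it. In these whole kidney libraries fewer cells of a type and less RNA per cell cannot be told apart. All 7 intercalated cell markers were detected, and their summed normalized count ran from 12565 to 13410 in active and from 12094 to 14740 in inactive males, and from 16191 to 22671 in active and 14875 to 18691 in inactive females. In males this sum averaged 12967 ± 320.2 in the active and 13275 ± 1042 in the inactive period, with 0 of the 7 markers called by limma and 2 at an unadjusted p under 0.05. In females it averaged 18780 ± 2771 in the active and 16842 ± 1313 in the inactive period, with 3 of the 7 markers called higher and 1 lower. Of all genes 15.4% were called for the period in males, and 7.97% higher and 6.98% lower in females. The part of this sum in the results was not tested. Between the sexes 6 of these 7 markers were called lower in males in the active period (median log2 fold -0.46). In the inactive period 4 of 7 were called lower (median -0.41). Avpr1a and all 5 podocyte markers were called lower in both periods. Of all genes 30.5% were called lower in males in the active and 27.8% in the inactive period. The 5 smooth muscle markers summed to 2835 ± 256 in active and 2489 ± 191 in inactive males, and to 3303 ± 376 in active and 3072 ± 388 in inactive females. For the period 2 of these 5 and 3 of 7 endothelial markers were called higher in males, against 8.43% of all genes. In females 1 of 5 and 1 of 7 were called higher, against 7.97%. The part of these cells in the Avpr1a result was not tested. Of 6 adrenal cortex markers 4 had reads, and the list summed to 136 to 259 normalized counts over the libraries. The steroid enzymes Cyp11b1 and Cyp11b2 were at 0 in every library. The 1 adrenal marker that passed the filter was called lower in males in both periods.

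**Figure D2:**
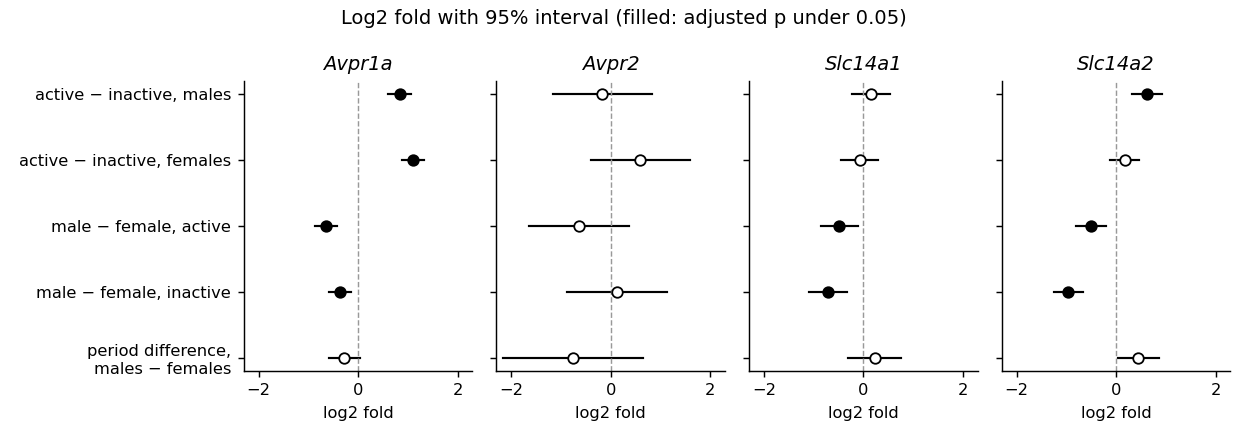
Log2 fold (x axis) of the 4 genes in the 4 comparisons and in the difference between the period effects (rows), with 95% intervals; filled points have a limma adjusted p under 0.05. Avpr1a is called in all 4 comparisons, both urea transporters in both comparisons of the sexes, Slc14a2 also for the period in males, and Avpr2 in none.

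Avpr2, the V2 receptor, was close to the lower limit of measurement and passed no test. In male kidneys it ran from 3.29 through a median of 7.44 to 22.7 normalized counts in the active period, against 5.78, 10.6 and 14.3 in the inactive period. In female kidneys it ran from 5.50 through 15.6 to 23.4 in the active period, against 0.827, 12.7 and 16.8 in the inactive period. The 4 groups overlapped throughout, and the whole table held 296 reads of Avpr2, between 1 and 30 in a library.

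Active minus inactive, the log2 fold of Avpr2 was -0.17 in males (95% interval -1.17 to 0.83, adjusted p = 0.854) and 0.59 in females (-0.41 to 1.59, adjusted p = 0.479). Male minus female, it was -0.63 in the active period (-1.63 to 0.37, adjusted p = 0.270) and 0.13 in the inactive period (-0.87 to 1.13, adjusted p = 0.839). Each interval holds 0 and reaches past 0.5 times or 2 times the level at its farther end, so these data leave out neither no difference nor one of that size. The sign for male minus female in the inactive period was not fixed, with a log2 fold of -0.12 to 0.18 under other settings and of -0.36 to 0.29 with single libraries left out. Nor was the sign for the period in males, at -0.19 to 0.02 under other settings and -0.43 to 0.07 with single libraries left out.

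The low count of Avpr2 stood beside the overlap of its exons with Arhgap4. Arhgap4 had 115 to 227 normalized counts in active males, 149 to 187 in inactive males, 186 to 246 in active females and 168 to 283 in inactive females. How reads from shared bases were assigned, and whether strand was used, is not given in the sources used here, so Avpr2 levels are uncertain. Aqp2, the water channel downstream of this receptor, had 1693 to 4906 normalized counts over the libraries.

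Slc14a2, the UT-A gene, was lower in male than in female kidneys in both periods, and was higher in the active period among males. In male kidneys it ran from 1686.5 through a median of 2131 to 2474 normalized counts in the active period, against 893, 1396 and 2067 in the inactive period. In female kidneys it ran from 2640 through 2983 to 3232 in the active period, against 2194, 2747 and 3052 in the inactive period. Every male library lay below every female library of the same period, and the periods overlapped within each sex.

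Among males Slc14a2 averaged 2088 ± 284 in the active and 1393 ± 406 in the inactive period, a 1.54-fold difference (log2 fold 0.62 ± 0.14, adjusted p = 0.00604), and 3 of 6 active libraries lay above every inactive one. Among females it averaged 2950 ± 195 in the active and 2634 ± 343 in the inactive period (log2 fold 0.17 ± 0.14, 95% interval -0.13 to 0.47, adjusted p = 0.492). The difference between these effects was 0.45 ± 0.20 on the log2 scale and was not called (limma adjusted p = 0.232), although its 95% interval of 0.03 to 0.87, which carries no correction, left out 0. The male difference reached an adjusted p of 0.0501 when the 2 male groups were fitted alone, with the same log2 fold, and stayed called with any single library left out (log2 fold 0.50 to 0.75).

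Between the sexes, male minus female, the log2 fold of Slc14a2 was -0.51 ± 0.14 in the active period (adjusted p = 0.00430) and -0.96 ± 0.14 in the inactive period (adjusted p = 6.81e-06). On the fitted scale the inactive male kidneys held 0.515 times the level of the inactive females. Under other settings, equal totals among them, this log2 fold was -1.238 to -0.92, so its size depends on the processing. The order of the means was female active, female inactive, male active and male inactive. The female periods did not differ beyond their spread, and the libraries of inactive females and active males overlapped, a difference that was not tested.

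Among inactive males the libraries low in Slc14a2 were also low in Cryab and Akr1b3, other genes of the medulla. Libraries 3, 4 and 5 of that group had 1328, 1087 and 893 normalized counts of Slc14a2 and 2108, 1957 and 2669.5 of Cryab, a small heat shock protein abundant in the inner medulla. Library 1 of the same group had 2067 of Slc14a2 and 4917 of Cryab. Akr1b3, the aldose reductase that makes the osmolyte sorbitol, had 2565, 2548 and 2728 in libraries 3, 4 and 5 and 5465 in library 1. The same libraries were thus at the low and the high end for the 3 genes. Across groups such low medullary genes also came with high Slc14a2. Library 5 of active females had 1506 of Akr1b3 and 2406 of Cryab with 2640 of Slc14a2, and library 2 had 1912 and 2927 with 2983. The part of medullary content in the Slc14a2 result was not tested.

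All 9 principal cell markers were detected, and their sum was 14306 to 17235 in active and 12954 to 15639 in inactive males. In females it was 13497 to 18388 in active and 17557 to 21103 in inactive kidneys. For the period 2 of the 9 markers were called higher in males, against 8.43% of all genes. In females 3 of the 9 were called lower, against 6.98%. With this sum as a covariate, chosen after seeing the data, the period difference of Slc14a2 became 0.34 in males (adjusted p = 0.0563) and 0.52 in females (adjusted p = 0.00841). The sum averaged 16614 ± 1720 in active and 19615 ± 1427 in inactive females, and 16006 ± 1109 in active and 14026 ± 1107 in inactive males. The covariate and period thus did not vary independently. The list holds Aqp2 and Aqp3, which are themselves targets of vasopressin. With the mean log2 level of Akr1b3 and Cryab as covariate instead, the differences were 0.53 in males (adjusted p = 0.00357) and 0.18 in females (adjusted p = 0.311).

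The difference between the sexes in the inactive period moved more. With the principal cell sum as covariate, male minus female, Slc14a2 was at -0.26 (adjusted p = 0.354), Avpr1a at -0.22 (adjusted p = 0.483), and Slc14a1 turned to 0.32 (adjusted p = 0.345). In that period the lowest female sum lay above the highest male one, so the covariate and sex did not vary independently there. In the active period all 3 genes stayed called under the same covariate.

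**Figure D3:**
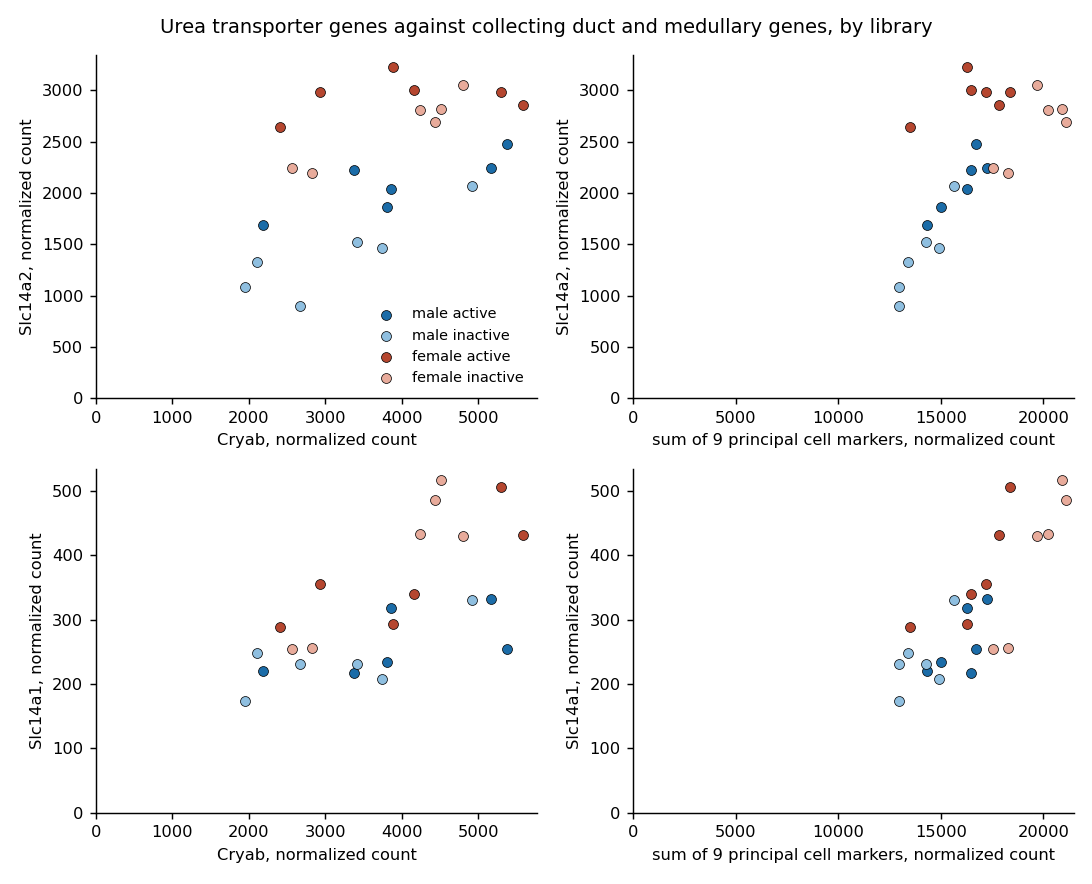
Normalized counts of Slc14a2 (top) and Slc14a1 (bottom) on the y axes against Cryab (left) and the sum of 9 principal cell markers (right) on the x axes, all linear from 0; each point is a library, coloured by group. In inactive males the libraries lowest in Slc14a2 (893 and 1087) have the lowest marker sums (12974 and 12954), and the sums of inactive females lie apart from those of inactive males.

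Slc14a1, the UT-B gene, was lower in male than in female kidneys in both periods and was not called for the period. In male kidneys it ran from 217 through a median of 244 to 332 normalized counts in the active period, against 173, 231 and 330.4 in the inactive period. In female kidneys it ran from 288 through 348 to 506 in the active period, against 254, 431 and 516 in the inactive period. All 4 groups overlapped with each other at these levels.

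Active minus inactive, the log2 fold of Slc14a1 was 0.15 in males (95% interval -0.22 to 0.53, adjusted p = 0.614) and -0.07 in females (-0.45 to 0.30, adjusted p = 0.853). Male minus female, it was -0.48 ± 0.18 in the active period (adjusted p = 0.0260) and -0.71 ± 0.18 in the inactive period (adjusted p = 0.00192). In the active period 4 of 6 male libraries lay below every female one, and in the inactive period 5 of 6. The call in the active period was lost without library 3 or 4 of active females or without library 2, 3 or 5 of active males, where the log2 fold was -0.45 to -0.38 and the adjusted p 0.0545 to 0.0743.

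In inactive females low Slc14a1 was found in the libraries low in collecting duct genes. Libraries 4 and 6 had 256 and 254 normalized counts, against 429 to 516 in the other 4, and these libraries also had the lowest Slc14a2 (2194 and 2244), Cryab (2831 and 2572) and principal cell sums (18280 and 17557) of that group. This did not hold in every group: library 6 of active females had 294 of Slc14a1 and, at 3232, the highest Slc14a2 of its group, and library 3 of inactive males had 248 of Slc14a1 with 2108 of Cryab. The 7 endothelial markers, read because UT-B is known from vasa recta, were all detected and summed to 10286 to 12026 in active and 6834 to 12033 in inactive males, and to 13311 to 17406 in active and 12407 to 16923 in inactive females. All 7 were called lower in males in both periods, as were Slc14a1 and all 5 podocyte markers. Of all genes 30.5% were called lower in males in the active and 27.8% in the inactive period. The 7 red cell markers summed to 5567 to 7291 in active and 2327 to 5289 in inactive males, and to 2660 to 8323 in active and 1343 to 6921 in inactive females. The part of these cells in the Slc14a1 result was not tested.

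The genes whose levels were most like each member over the 24 libraries were ranked by Pearson's r on the log2 scale among 12458 genes. For Avpr1a these were Ckb (r = 0.934), Ypel2, Tubb2a, Unc5c and Dapk1. For Slc14a2 they were Npr1 (r = 0.917), the receptor for atrial natriuretic peptide, then Arhgef26, Tmem184b, Tpm4 and Plpp1, and for Slc14a1 Nexn (r = 0.876), Plat, Vopp1, Cpne8 and Gprc5b. The closest for Avpr2 reached no more than r = 0.624 (Zfp960, then Nipa1, Tada2a and Wasf1). The points share their libraries and the difference between the groups, so these values are descriptions.

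With group means taken out, the most like genes were others. Deviations of Slc14a1 followed those of Aqp2 (r = 0.787), Rhof, L1cam, Cacnb3 and Tns3, and Cryab was 17th (r = 0.728). Deviations of Slc14a2 followed Ptgs2 (r = 0.780), the inducible cyclooxygenase, then Elf3, Syk, Tnfrsf22 and Itga3, with Aqp2 7th (r = 0.715) and Cryab 12th (r = 0.699). The 2 transporters followed each other at r = 0.519. Avpr1a followed Ildr1 (r = 0.789), Hs3st3b1, Itga2b, Tarm1 and H3f3b, and was at 0.275 with Aqp2. For Avpr2 the highest were Gpr155 (r = 0.742), Mrpl3, Nipa1, Sco1 and Abcb10. The top genes were picked as the highest of 12458 over 24 libraries. Avpr2, with only 1 to 30 reads in a library, also reached 0.742, so these values too are descriptions.

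Related receptors and hormones were scarce. Avpr1b, the V1b receptor of the pituitary, and Avp, the hormone gene, had 0 reads in 827 M, which allows up to 0.00363 reads per M reads by counting error alone. Oxt, the oxytocin gene, had 8 reads in 3 libraries, and its receptor Oxtr had 340 reads over all 24. Lnpep, a peptidase that cleaves vasopressin and oxytocin, was 1 of the 2 genes of this list of 5 that passed the filter on low values, the other being Oxtr, which was not called. Lnpep was lower in the active period in males (log2 fold -0.21, adjusted p = 0.0136), and male minus female it was at -0.41 in the active and -0.23 in the inactive period.

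In the branch from the V2 receptor through cyclic AMP, 21 genes were tested. For the period, 5 rose and 2 fell in males, where 15.4% of all genes were called, and 4 rose and 1 fell in females, where 15.0% were, with median log2 folds of 0.05 and 0.10 against 0.01 and 0.00 over all genes. Akap7, which anchors protein kinase A, fell in both (log2 fold -0.40 in males and -0.32 in females). Creb1, the transcription factor that protein kinase A phosphorylates, was at 0.24 in males (adjusted p = 0.0437) and 0.33 in females (adjusted p = 0.00536). In males the phosphodiesterase Pde1a fell (-0.24) and the arrestin Arrb2 rose (0.34), and in females the kinase subunit Prkar2a rose (0.23).

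Male minus female, 12 of these 21 were lower and 2 higher in the active period, against 30.5% and 30.1% of all genes, and 12 lower and 3 higher in the inactive period, against 27.8% and 27.9%. The median log2 folds were -0.25 and -0.24, against -0.05 and -0.04 over all genes. The phosphodiesterase Pde3a was at -1.08 and -1.03 (active and inactive), the adenylyl cyclase Adcy6 at -0.78 and -0.63, Akap7 at -0.56 and -0.48, and Pde1a at -0.53 and -0.37, each with an adjusted p under 0.05. For the difference between the period effects 0 of the 21 were called by limma, by edgeR and by DESeq2, against 2.71% of all genes by limma. Of the 21, 0 had an unadjusted limma p under 0.05 for it.

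In the branch from the V1a receptor through Gq and calcium, 13 genes were tested, of which limma called 1 higher and 1 lower in males and 1 higher in females, against 8.43% and 6.95% of all genes in males and 7.97% higher in females. In males the kinase Prkcb rose in the active period (log2 fold 0.86, adjusted p = 0.0186) and Rgs2, which dampens Gq signalling, fell (-0.61, adjusted p = 0.0411). In females Prkcd rose (0.29, adjusted p = 7.37e-05), and the period effect of Prkcd differed between the sexes (-0.28, adjusted p = 0.0249). By limma the other 11 genes in males and 12 in females did not pass, while in females edgeR called 2 and DESeq2 3 of the 13 higher. The G protein Gnaq was at -0.08 in males and 0.16 in females (limma adjusted p = 0.0502, and called in females by edgeR and by DESeq2), and Gna11 at 0.10 and 0.05. Male minus female, 7 of the 13 were lower in the active period (30.5% of all genes), and 5 lower and 1 higher in the inactive period (27.8% and 27.9%). The calcium channel gene Itpr2 was at -0.94 and -0.86, Plcb4 at -0.61 and -0.54 and Itpr3 at -0.63 and -0.64, while Gnaq was called in the active period alone (-0.26) and Prkca and Prkcb in the inactive period alone (0.33 and -0.91), as calls and not as a test of that contrast.

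The 12 modulators of vasopressin action include prostaglandin, endothelin and purine receptors. For the period in males 0 of them were called by limma, by edgeR and by DESeq2, against 15.4% of all genes by limma. In males 3 of the 12 had an unadjusted limma p under 0.05. In females Ptger3, the EP3 receptor that lowers cyclic AMP, rose (log2 fold 0.58, adjusted p = 0.000189), where 7.97% of all genes were called higher. Male minus female, 9 of the 12 were lower in the active and 8 in the inactive period, against 30.5% and 27.8% of all genes, with medians of -0.60 and -0.61 against -0.05 and -0.04. Casr, the calcium sensing receptor, was at -0.92 and -0.70, the endothelin receptor Ednra at -1.17 and -1.07, and P2ry2 at -0.73 and -0.84. Ptger3 was at -1.06 and -0.57, and the cyclooxygenase Ptgs1 was at -0.35 and -0.65.

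Of 8 genes for collecting duct water channels and their trafficking, 0 were called in males for the period by limma, by edgeR and by DESeq2. By limma 15.4% of all genes were called there, and 4 of the 8 had an unadjusted p under 0.05. In females the basolateral channel Aqp3 fell (log2 fold -0.49, adjusted p = 5.31e-06) and the fusion protein Snap23 rose (0.23, adjusted p = 0.00183). Of all genes 6.98% were called lower and 7.97% higher in females. Aqp2 averaged 4252 ± 678 in active and 3102 ± 816 in inactive males, and 2854 ± 744 in active and 3879 ± 845 in inactive females. Its period difference was 0.48 in males (adjusted p = 0.114) and -0.46 in females (adjusted p = 0.143), and the difference of these effects was 0.94 ± 0.29 (adjusted p = 0.0794). Male minus female, Aqp2 was at 0.60 in the active period (adjusted p = 0.0138) and -0.33 in the inactive period (adjusted p = 0.173), unlike Slc14a1 and Slc14a2, which were lower in males in both. Aqp4 was at -0.94 and -1.37 (active and inactive), Vamp2 at -0.25 and -0.17, and Stx4a at 0.36 and 0.21, which turned to -0.07 in the inactive period with equal totals. Aqp3 was higher in males in the active period (0.38), and Ezr lower in the inactive period (-0.13).

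Of 7 tonicity and osmolyte genes tested, Slc6a6, a taurine transporter, fell in males for the period (log2 fold -0.23, adjusted p = 0.0226) and Hspa4l rose in females (0.42, adjusted p = 0.00807). The effect of the period on Slc6a6 differed between the sexes (-0.36, adjusted p = 0.0358). Male minus female, 3 of the 7 were lower in each period, against 30.5% of all genes in the active and 27.8% in the inactive period. Nfat5, the transcription factor of the tonicity response, which is known to drive UT-A transcription, was at -0.78 in the active and -0.59 in the inactive period, and the inositol transporter Slc5a3 at -0.83 and -0.39. Slc6a6 was also lower in the active period (-0.25), and the betaine transporter Slc6a12 in the inactive period (-1.52, adjusted p = 0.0173), while Slc5a3 and Slc6a12 turned to 0.02 and 1.04 in the inactive period with the principal cell sum as covariate.

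Of 9 enzymes of urea and arginine 5 passed the filter on low values. For the period 0 of the 5 were called in males by limma, by edgeR and by DESeq2, against 15.4% of all genes by limma. In males 1 of the 5 had an unadjusted limma p under 0.05. In females Asl and Ass1, which make arginine, fell (log2 folds -0.45 and -0.22), where 6.98% of all genes were called lower. Arg2, the mitochondrial arginase that makes urea, averaged 80.4 ± 15.4 in active and 111 ± 29.8 in inactive males, against 464 ± 89.2 in active and 397 ± 84.5 in inactive females. Male minus female this was -2.51 and -1.84 on the log2 scale, the largest fold among the pathway genes named here, though 28.1% of its exon bases are shared with other genes. Gatm was also lower in males (-0.58 and -0.80) and Ass1 higher (0.56 and 0.43), and Asl was higher in the active period (0.45).

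Of 11 genes of urine concentrating salt transport, 3 rose in the active period in males and 2 in females, against 8.43% and 7.97% of all genes. The potassium channel Kcnj1 rose in both (log2 fold 0.18 in males and 0.31 in females), Aqp1 rose in males (0.23), and Umod rose in females (0.44), although some of its exon bases are shared with another gene. Male minus female, 6 of the 11 were lower and 2 higher in the active period, against 30.5% and 30.1% of all genes, and 6 lower and 3 higher in the inactive period, against 27.8% and 27.9%. The cotransporter Slc12a1 was at -0.76 and -0.45, Kcnj1 at -0.56 and -0.43, Cldn10 at 0.46 and 0.54, and Aqp1 at 0.43 in the active period. The period effect of Slc12a1 differed between the sexes (-0.31, adjusted p = 0.0426).

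**Figure D4:**
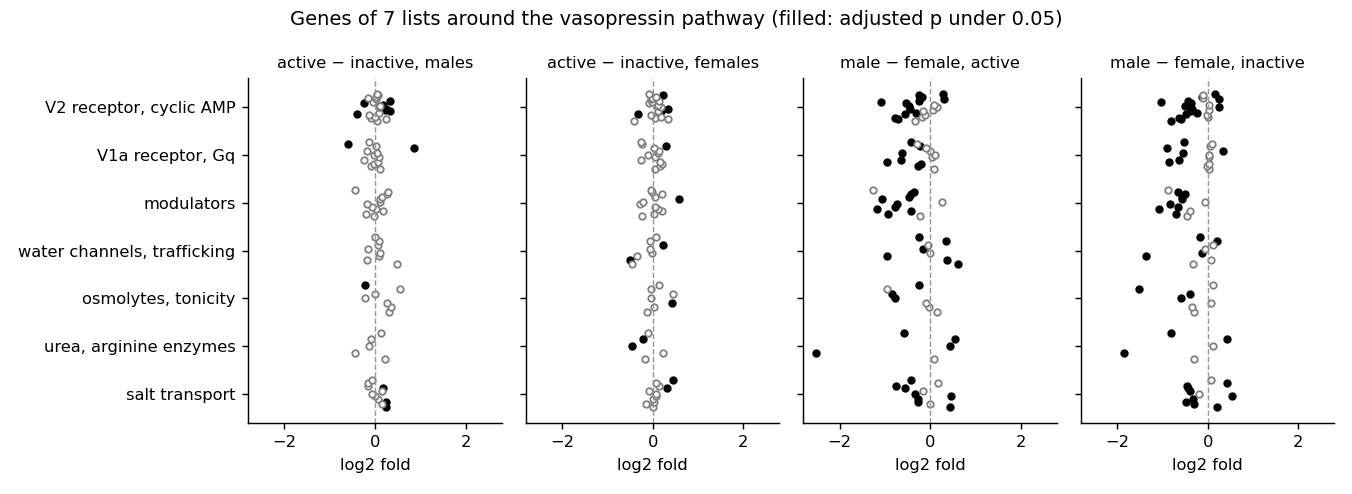
Log2 fold (x axis) of the tested genes of 7 lists around the vasopressin pathway (rows) in the 4 comparisons (panels); each point is a gene, filled where the limma adjusted p is under 0.05. Most filled points lie in the panels that compare the sexes and to the left of 0, and for the period no more than 7 genes of a list are called.

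Counted together, 2 of the 4 members rose in the active period in males, where 8.43% of all genes did, and 1 rose in females, where 7.97% did. Between the sexes 3 of the 4 were lower in males in each period, against 30.5% of all genes in the active and 27.8% in the inactive period. The median log2 fold of the 4 was 0.39 in males and 0.38 in females for the period, and -0.57 and -0.54 for male minus female in the active and inactive period. Over all genes tested these medians were 0.01 and 0.00 for the period, and -0.05 and -0.04 between the sexes. The medians of the 4 include Avpr2, which has few reads and was not called. In females Avpr1a alone was called for the period. For the difference between the period effects 0 of the 4 were called by limma or edgeR, against 2.71% of all genes by limma. DESeq2 called 0 of the 3 with an adjusted p (it gave none for Avpr2). Slc14a2 was the 1 with an unadjusted limma p under 0.05.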

How the data were processed

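The authors' deposited signal table holds gene counts of 24 libraries divided by a size factor per library, per the labels and the values. Per the submitters' processing notes the build was GRCm39 and the tools were DESeq2 1.28.1, featureCounts, Subread 2.0.6 and Trim Galore 0.6.10, with strand setting and annotation not given in these sources. Whole reads were recovered from the steps between values (all values above 0 were whole within 0.05) and numbered 31.0 to 39.3 M per library, with size factors from 0.828 to 1.28. Totals after scaling were 36.0 to 39.5 M in males and 29.6 to 32.4 M in females. Counting error is largest for Avpr2.

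Genes with a mean of at least 10 were tested, 17333 in number, as log2 of the normalized count plus 1, with limma 3.58.1 in R 4.3.3 over all 24 libraries (trended, robust prior), and p-values were adjusted per comparison by Benjamini-Hochberg over all genes. Intervals are 95%. Symbols, exon lengths and overlaps came from a GENCODE annotation of GRCm38, which is an older build, and promoter windows from RefSeq on GRCm38.p6. Members, gene lists and marker lists were chosen with earlier results of these data known. Pathway genes were named by rule: per list and comparison, the called genes with the 4 smallest adjusted p, and Aqp2; Gna11, Gnaq for the period, Creb1 in males and single genes given for both periods were added after their values were seen. Some genes picked this way are not reported here, though list counts include them. Likeness was ranked over genes with a mean of at least 50. The method was also run on simulated counts, drawn independently for each gene, with 200 genes changed. The outcome of that run is not given here and is not used as support.

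Alternatives were pseudocounts of 0.5 and 5, no filter, TMM, upper quartile and equal total scaling, fits of the 2 groups alone, edgeR 4.0.16 and DESeq2 1.42.0 on recovered reads, the title number as a replicate block, each library left out in turn, and 2 covariates chosen after seeing the data.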

Additional observations from a re-analysis of the deposited data

Results flagged for a closer look

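One value stood apart within its group. The highest Avpr1a library of active females had 696 normalized counts, and its gap to the next library, relative to the range of the group of 6, was above Dixon's 95% critical value. Chance marks about 1 in 20 groups, and 32 ends of groups (the lowest and the highest library of each member) were checked. Without that library the period difference of Avpr1a in females and its sex difference in the active period were still called by limma.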

How the results depend on the processing

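Under the alternatives, Avpr1a kept its direction and call in 3 of its 4 comparisons, the exception being male minus female in the inactive period, and Avpr2 was called in none. With the principal cell marker sum as covariate, added after seeing the data, Slc14a2 moved to 0.52 in females and 0.34 in males for the period, and male minus female in the inactive period Avpr1a moved to -0.22, Slc14a1 to 0.32, Slc14a2 to -0.26, Slc5a3 to 0.024, Slc6a12 to 1.04 and Aqp2 to 1.001. Fitted with the male groups alone, Slc14a2 kept 0.62 for the period and lost its call, with fewer libraries in the fit. With single libraries left out, Slc14a1 ranged from -0.55 to -0.38 for male minus female in the active period. Other settings, equal totals among them, kept these sex calls but changed their size. Avpr1a was at -0.918 to -0.632 in the active and -0.648 to -0.363 in the inactive period. Slc14a1 was at -0.755 to -0.474 and -0.987 to -0.698, and Slc14a2 at -0.782 to -0.498 and -1.238 to -0.92. With equal totals, in the inactive period, Prkcd turned to -0.22, Aqp3 to -0.21, Snap23 to -0.17, Stx4a to -0.066 and Aqp1 to -0.063, beside a shift of the median of all genes by -0.27 and -0.28.

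Counts of called genes moved as follows. Higher calls for the period in females were 898 with the principal cell covariate, and lower calls in males 758 with the male groups alone. Male minus female, equal totals gave 2635 higher and 8822 lower calls in the active and 2051 and 9054 in the inactive period, where the principal cell covariate gave 2121 and 1697. For the difference of the period effects, higher and lower calls were 133 and 114 with no filter and 526 and 420 by DESeq2, higher calls 479 with the Akr1b3 and Cryab covariate, and lower calls 80 with the principal cell covariate. Leaving out single libraries gave 139 to 465 higher and 133 to 315 lower calls. The causes of these moves were not tested.

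Male and female libraries with the same title number correlated at -0.10 to 0.12 after group means were removed. The labels do not say whether the numbers pair them, and low correlations cannot exclude pairing. The replicate block changed no call of a member, and Slc14a2 stayed at -0.51 in the active period. Of 7644 alternatives run on single genes outside the 4 members, 7413 kept direction and side of the threshold, 126 lost a call, 97 gained one and 8 turned. Of 2912 list counts 193 moved by over 1.5 times or to or from 0, which includes changes of single genes in short lists. With 1 to 30 reads of Avpr2 per library, counting error is part of its wide intervals.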
